A study of Sus scrofa with 12 samples.

Results

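The genes of zinc and copper handling were described in the liver of pigs given pivalate or vehicle. They are the zinc importers of the SLC39 (ZIP) family, the zinc exporters of the SLC30 (ZnT) family, the metallothioneins of the MT1, MT2 and MT3 type, the metal-sensing factor MTF1, and the copper genes ATP7A, ATP7B, SLC31A1, SLC31A2, ATOX1, CCS and COMMD1. They were found by their names in the gene symbol column of the array annotation, and the names were chosen with earlier results of these data known. This gave 18 genes on 20 transcript clusters, a cluster being the set of probes for 1 gene or locus, out of 25388 clusters in all, of which 14430 had a gene symbol. For SLC30A8, the gene with several clusters, the cluster of highest mean signal was taken. Of these 18 genes, 9 are zinc importers, 4 are zinc exporters, 1 is MTF1 and 4 are copper genes. The gene symbol column named 0 metallothioneins. A further 17 genes of the same families, among them MT1A, MT3 and MT-2B, a gene that the annotation describes as metallothionein-2A, carry no such symbol in that column and were reached through an mRNA entry, an older locus symbol or, for LOC100737544, the description of the gene, and they are kept apart from the 18 genes throughout. Of these 17 genes, 14 carry a mark for cross-hybridisation in the annotation of their mRNA entry and 11 have no genome position there, so their values are uncertain.

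Each liver was run on its own array (Affymetrix, porcine gene array), in 12 male crossbred pigs (Pietrain crossed with German Landrace and German Edelschwein) that were 5 weeks old at the start and were kept in pairs. The 6 pigs of group PIV received sodium pivalate by mouth, at a daily dose of 30 mg per kg body weight over 28 days, dissolved in sodium bicarbonate solution, and the 6 pigs of group CON received the bicarbonate solution alone for the same time. Both groups ate the same nutrient-adequate diets, low in carnitine, and livers were taken after a meal. Mammals cannot oxidise pivalate, so it is coupled to carnitine for removal, and carnitine is lost with it. The pigs thus serve as a model of secondary, not of inherited, carnitine deficiency.

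The liver takes zinc up from portal blood through ZIP proteins and stores it on metallothioneins, small cysteine-rich proteins that bind zinc and copper. Free zinc in the cell is sensed by MTF1, a transcription factor that switches on the metallothionein genes and the exporter gene SLC30A1. Copper enters the hepatocyte through CTR1, the product of SLC31A1, is handed to its targets by chaperones such as ATOX1 and CCS, and leaves through ATP7B, which loads copper onto ceruloplasmin and sends the excess into bile. Hepatic metallothionein and ZIP14, the product of SLC39A14, are known to be induced by zinc, by glucocorticoids or by inflammation.

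The deposited values are log2 signals, 1 for each cluster and pig, on the scale of Robust Multichip Analysis (RMA). Array medians were 4.75 to 4.88, and any 2 arrays correlated with an r of 0.977 to 0.991 across clusters. Among CON pigs, K22 was the most distant on principal component 1 (20.3% of the variance) and its array weight, 0.518, was lowest, followed by that of K42 (0.664). The labelled tissue was checked by hepatocyte markers, of which 6 of 8 were measured, with log2 signals of 11.13 to 12.91 in every pig. Here and in the lists below, a gene counted as measured only when a cluster was found by its name. A signal of at least 5 in at least 6 pigs was reached by 12 of the 18 genes and by 46.4% of all clusters, and clusters below it are called dim here. In a whole-tissue sample, fewer cells of a type and less RNA per cell cannot be told apart. Values of single pigs are given in the order P10, P12, P29, P30, P31 and P50 for group PIV and K1, K3, K4, K22, K23 and K42 for group CON. The log2 FC is group PIV minus group CON, and signals of different genes are not set against each other, since probes differ in brightness.

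None of the 18 genes was called higher or lower in group PIV. At the filter of the methods, namely a fold change (FC) of more than 1.2 up or down together with an unadjusted p under 0.05, here from limma, 0 of the 18 genes passed, against 1.82% of all clusters (462 of 25385), of which 1.03% of all clusters were higher and 0.788% lower in group PIV. With the methods' t-test in place of limma 0 of the 18 genes passed, against 1.18% of all clusters. Without the FC limit, 0 of the 18 genes had an unadjusted p under 0.05, against 3.63% of all clusters, and by the methods' t-test 0 genes, against 3.67%. After Benjamini-Hochberg adjustment 0 clusters of the whole table passed with either test. The 2 groups overlapped for all 18 genes, whereas they did not overlap for 0.158% of all clusters. A count of 0 in 18 genes is close to what the share of all clusters gives for so few genes. The log2 FC of the 18 genes ran from −0.17 (SLC30A4) to 0.16 (SLC30A8), with 7 above and 11 below 0 and a median of −0.016. Over all clusters 13283 log2 FC lay above and 12102 below 0, with a median of 0.0059. The largest FC was 1.12, and the smallest unadjusted limma p was 0.0993.

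The precision of these comparisons is given by the 95% interval of the log2 FC. For 9 of the 18 genes the whole interval lay within a FC of 1.2 in either direction, against 35.2% of all clusters. These 9 genes were the importers SLC39A3, SLC39A8, SLC39A11 and SLC39A13, the exporter SLC30A7, MTF1, and the copper genes CCS, COMMD1 and SLC31A2. Among them SLC39A3 and SLC31A2 were dim. Of the 12 genes that were not dim, 7 had such an interval, against 43.4% of the clusters that were not dim. The count among the 18 genes was 5 when PIV pig P30 was left out. For the other 9 genes a difference of more than 1.2-fold lay within the interval, and over all 18 genes the intervals reached from a ratio of 0.770 (SLC30A9) to 1.30 (SLC30A8). The SE of the log2 FC lay between 0.0784 and 0.124. The 17 further genes gave 0 past the filter and 0 with an unadjusted p under 0.05, a smallest p of 0.145, and 6 intervals within 1.2-fold. Of their log2 FC 13 lay above and 4 below 0, beside 13283 above and 12102 below over all clusters, and this split was not tested.

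**Figure D1:**
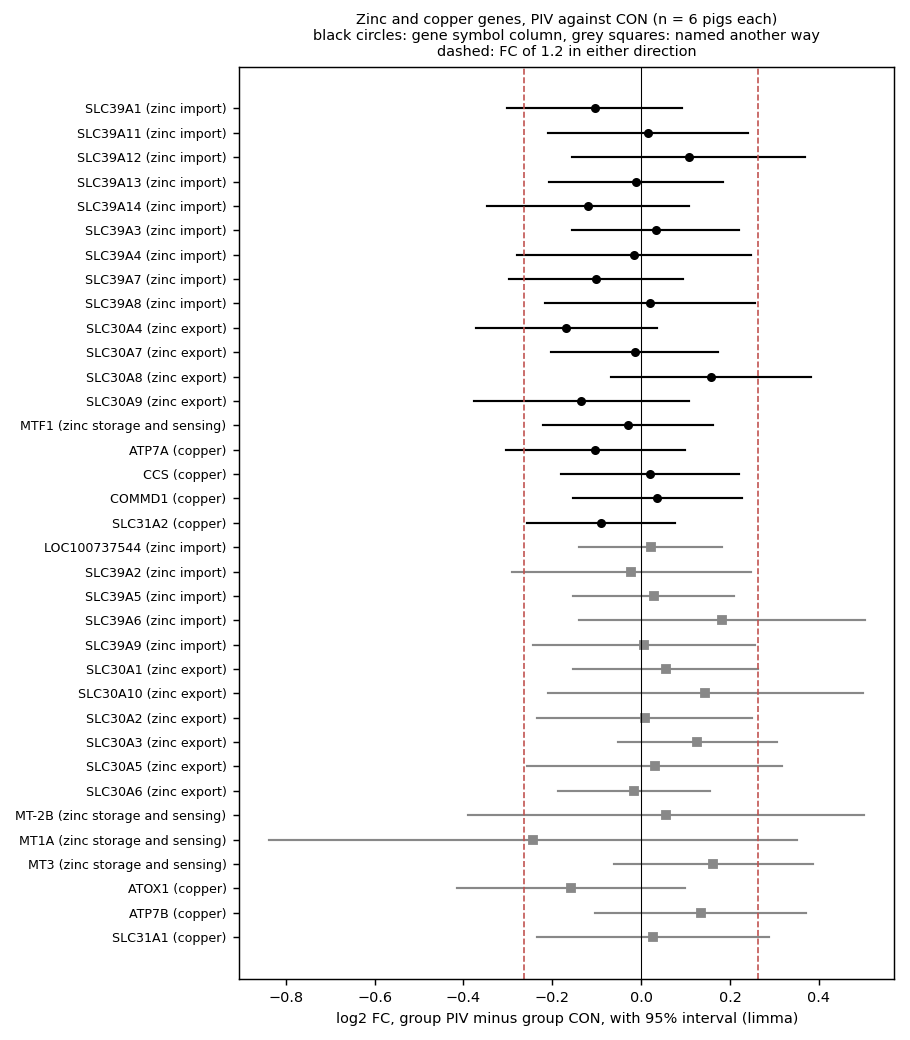
The horizontal axis gives the log2 FC of each zinc or copper gene, group PIV minus group CON with 6 pigs each, as a point with its 95% interval from limma, black for the 18 genes of the gene symbol column and grey for the 17 genes named another way; dashed lines mark a FC of 1.2. Every point lies between the dashed lines and every interval crosses 0, and the interval of MT1A is the widest, from −0.84 to 0.35.

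The 9 zinc importers had 4 log2 FC above and 5 below 0, from −0.12 for SLC39A14 to 0.11 for SLC39A12, and 4 of them had an interval within 1.2-fold. SLC39A14 on chromosome 14 encodes ZIP14, which brings zinc, manganese and iron into hepatocytes. SLC39A14 had log2 signals of 9.09, 9.25, 9.12, 9.14, 9.03 and 9.22 in group PIV, against 9.34, 9.59, 8.83, 9.19, 9.43 and 9.18 in group CON. The means were 9.14 ± 0.083 in group PIV and 9.26 ± 0.26 in group CON (SD, n = 6 each), and all 6 pigs of group PIV lay within the range of group CON, which ran from K4 to K3. SLC39A14 had a log2 FC of −0.12 ± 0.11 (SE), with a 95% interval of −0.35 to 0.11 (exact permutation p = 0.316), so that a ratio of 0.786 to 1.08 was covered. SLC39A4 on chromosome 4 encodes ZIP4, best known for zinc absorption in the gut. It was dim but near the limit, with a log2 signal of at least 5 in 5 pigs. SLC39A4 had log2 signals of 4.96, 4.87, 4.97, 4.74, 4.999 and 5.39 in group PIV, against 5.16, 4.99, 5.10, 4.52, 5.03 and 5.22 in group CON. CON pig K22 lay below the 5 other CON pigs and PIV pig P50 above all others. SLC39A4 had a log2 FC of −0.016 ± 0.12 (SE), with a 95% interval of −0.28 to 0.25 (exact permutation p = 0.905). SLC39A12 on chromosome 10 encodes ZIP12, a transporter known from brain, and was dim in every pig. SLC39A12 had log2 signals of 2.65, 2.24, 2.34, 2.69, 2.50 and 2.63 in group PIV, against 2.13, 2.52, 2.09, 2.43, 2.41 and 2.83 in group CON. The values of the 2 groups interleaved, and the log2 FC was 0.11 ± 0.12 (exact permutation p = 0.426).

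The other 6 importers had log2 FC between −0.10 and 0.033. SLC39A8 encodes ZIP8, which carries manganese as well as zinc and recovers manganese from bile, and its signals were 7.25 to 7.80 in group PIV and 7.27 to 7.75 in group CON (log2 FC 0.020 ± 0.11). SLC39A7 encodes ZIP7, which releases zinc from the endoplasmic reticulum, with signals of 6.46 to 6.77 in group PIV and 6.48 to 6.96 in group CON (log2 FC −0.10 ± 0.092). SLC39A1, a plasma membrane importer of many tissues, had signals of 5.43 to 5.85 in group PIV and 5.53 to 5.92 in group CON (log2 FC −0.10 ± 0.093). The intervals of SLC39A1 and SLC39A7 both stretched past a 1.2-fold lower signal and stopped short of a 1.2-fold higher one. SLC39A3 (log2 FC 0.033 ± 0.088), SLC39A11 (log2 FC 0.015 ± 0.11) and SLC39A13 (log2 FC −0.012 ± 0.092), which encode ZIP3, ZIP11 and ZIP13, had intervals within 1.2-fold.

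Of the importers named another way, SLC39A5 encodes ZIP5, a zinc transporter of the basolateral membrane, and had signals of 6.61 to 6.90 in group PIV and 6.53 to 6.92 in group CON (log2 FC 0.029 ± 0.085). A second cluster, LOC100737544, which the annotation describes as similar to ZIP5, had a log2 FC of 0.021 ± 0.076, and both intervals lay within 1.2-fold. SLC39A6 encodes ZIP6 and gave the highest log2 FC of all importers, 0.18 ± 0.15 (exact permutation p = 0.344). With 1 pig left out at a time it ran from 0.056 without CON pig K42 to 0.29 without CON pig K23. The 6 PIV pigs lay between 4.98 and 5.27, inside the range of group CON, 4.36 to 5.52. SLC39A2 (log2 FC −0.022 ± 0.13), which was dim, and SLC39A9 (log2 FC 0.0061 ± 0.12), which encodes ZIP9, lay near 0.

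The 4 zinc exporters gave the highest and the lowest log2 FC of the 18 genes, and 1 of them, SLC30A7, had an interval within 1.2-fold. SLC30A4 on chromosome 1 encodes ZnT4, a transporter of intracellular vesicles, and was dim in every pig. SLC30A4 had log2 signals of 2.46, 2.33, 2.18, 2.51, 2.29 and 2.69 in group PIV, against 2.82, 2.54, 2.50, 2.61, 2.58 and 2.40 in group CON. The lowest 3 values were of PIV pigs P29, P31 and P12 and the highest was of CON pig K1, with the rest interleaved. SLC30A4 had a log2 FC of −0.17 ± 0.10 (SE), with a 95% interval of −0.37 to 0.036 (exact permutation p = 0.102), the smallest permutation p of the 18 genes. SLC30A8 on chromosome 4 encodes ZnT8, the zinc transporter of insulin granules in pancreatic beta cells, and was dim as well. SLC30A8 had log2 signals of 3.46, 3.43, 3.36, 3.49, 3.72 and 3.65 in group PIV, against 3.28, 3.11, 3.49, 3.35, 3.18 and 3.74 in group CON on its brightest cluster. The 3 lowest values were of CON pigs, but the highest was of CON pig K42. SLC30A8 had a log2 FC of 0.16 ± 0.11 (SE), with a 95% interval of −0.069 to 0.38 (exact permutation p = 0.184). The 2 other clusters of SLC30A8 gave 0.11 ± 0.16 and 0.053 ± 0.12 (SE), and the 3 clusters lie on both strands although the annotation names the same mRNA for them. The annotation also puts these clusters in the mixed class, in which some probes match more than 1 place. Of the genes named another way, LOC100737544 and SLC30A5 have clusters in this class as well.

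SLC30A9 on chromosome 8 encodes ZnT9, a transporter of mitochondria, and was among the 3 most variable of the 18 genes together with SLC39A4 and SLC39A12. SLC30A9 had log2 signals of 5.46, 5.73, 5.84, 5.61, 5.58 and 5.40 in group PIV, against 5.84, 5.65, 5.48, 6.16, 5.78 and 5.53 in group CON. CON pig K22 was highest and PIV pig P50 lowest, while the other 10 pigs overlapped. SLC30A9 had a log2 FC of −0.13 ± 0.11 (SE), with a 95% interval of −0.38 to 0.11 (exact permutation p = 0.303). SLC30A7 encodes ZnT7, which fills the Golgi apparatus with zinc, and its signals were 6.84 to 7.24 in group PIV and 6.91 to 7.22 in group CON (log2 FC −0.015 ± 0.089).

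Of the exporters named another way, SLC30A1 encodes ZnT1, which removes zinc across the plasma membrane and whose gene is a target of MTF1. SLC30A1 had log2 signals of 7.61, 7.73, 7.62, 7.77, 7.39 and 7.60 in group PIV, against 7.49, 7.73, 7.27, 7.69, 7.76 and 7.46 in group CON. The values of group PIV lay within those of group CON except for P30, by a small margin, and the log2 FC was 0.055 ± 0.10 with an interval within 1.2-fold (−0.15 to 0.26, exact permutation p = 0.565). SLC30A10 encodes ZnT10, known in people as the manganese exporter of the liver. SLC30A10 had log2 signals of 6.03, 6.39, 6.64, 6.73, 6.81 and 6.39 in group PIV, against 5.98, 5.91, 6.36, 6.58, 6.93 and 6.38 in group CON. Both groups spread over about the same range, and the log2 FC was 0.14 ± 0.17 (exact permutation p = 0.468). SLC30A5 (log2 FC 0.030 ± 0.14) and SLC30A6 (log2 FC −0.016 ± 0.081), whose products work as a pair in the secretory pathway, lay near 0. So did SLC30A2 (log2 FC 0.0079 ± 0.11), which was dim. SLC30A3, the transporter of synaptic vesicles, was dim as well. Its signals were 4.71 to 5.10 in group PIV and 4.66 to 4.91 in group CON (log2 FC 0.13 ± 0.084, exact permutation p = 0.117).

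**Figure D2:**
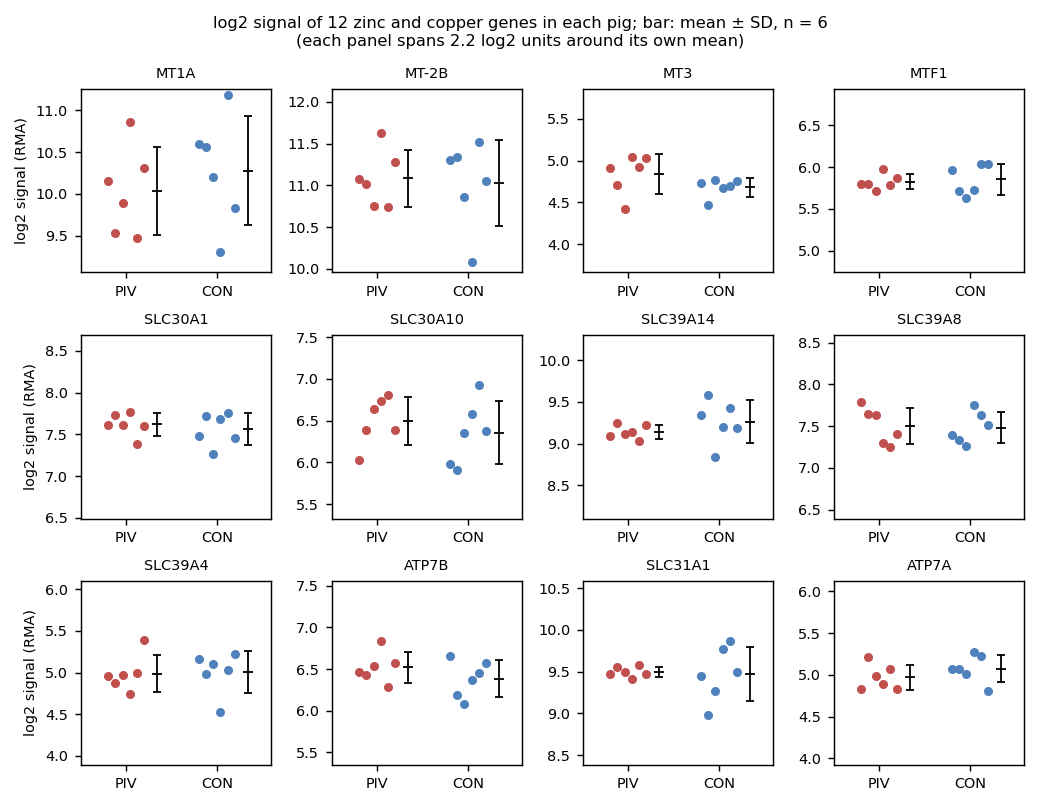
Each panel gives the log2 signal of 1 gene on the vertical axis in the 6 pigs of group PIV (red) and the 6 pigs of group CON (blue), with the mean and SD as a bar; every panel spans the same number of log2 units. The groups overlap in all panels, and MT1A and MT-2B spread most between pigs, with MT1A between 9.30 and 11.18.

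Of the metallothioneins, MT1A and MT-2B had the largest SD within groups among the 35 genes, while MT3 did not stand out. MT1A, MT3 and MT-2B were measured, all named through an mRNA entry that is marked as cross-hybridising and has no genome position. In the RefSeq gene order (assembly Sscrofa11.1) they lie near each other on chromosome 6, where the protein-coding genes follow in the order MT4, MT3, MT-2B, MT1D, 2 unnamed protein-coding genes and MT1A. Their mRNAs are similar in sequence, and the signal of one gene may hold that of another. MT1A had log2 signals of 10.15, 9.53, 9.89, 10.86, 9.47 and 10.31 in group PIV, against 10.59, 10.56, 10.21, 9.30, 11.18 and 9.82 in group CON. The highest value was of CON pig K23 and the lowest of CON pig K22, so that group CON spanned all 6 pigs of group PIV. The means were 10.04 ± 0.52 in group PIV and 10.28 ± 0.66 in group CON (SD, n = 6 each). MT1A had a log2 FC of −0.24 ± 0.28 (SE), with a 95% interval of −0.84 to 0.35 (exact permutation p = 0.481), which covers ratios of 0.560 to 1.28. When CON pigs K22 and K42, the 2 arrays of lowest weight, were left out together, the log2 FC was −0.60 with an unadjusted limma p of 0.0315, past the filter. With 1 pig left out at a time MT1A did not pass, and its log2 FC ran from −0.44 without K22 to −0.062 without CON pig K23. Leaving out both pigs was chosen after seeing the data.

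MT-2B had log2 signals of 11.08, 11.02, 10.76, 11.63, 10.74 and 11.28 in group PIV, against 11.31, 11.34, 10.86, 10.08, 11.52 and 11.06 in group CON. CON pig K22 was again lowest, and PIV pig P30 was highest, with CON pig K23 next to it. The means were 11.08 ± 0.34 in group PIV and 11.03 ± 0.52 in group CON (SD, n = 6 each). MT-2B had a log2 FC of 0.056 ± 0.21 (SE), with a 95% interval of −0.39 to 0.50 (exact permutation p = 0.848). Its sign turned when K22, or P30, or K22 and K42 together were left out, and with array weights. Over the 12 pigs MT1A had a 3.68-fold and MT-2B a 2.93-fold range, and the SD within groups of MT1A exceeded that of 99.3% and the SD of MT-2B that of 97.7% of all clusters. The 18 genes had a median SD of 0.158, against 0.180 over all clusters. MT3, the form known from brain, was dim. MT3 had log2 signals of 4.91, 4.70, 4.42, 5.05, 4.93 and 5.03 in group PIV, against 4.73, 4.46, 4.77, 4.67, 4.69 and 4.75 in group CON. PIV pigs P30, P50, P31 and P10 lay above all CON pigs, and PIV pig P29 was lowest of all. MT3 had a log2 FC of 0.16 ± 0.11 (SE), with a 95% interval of −0.062 to 0.39 (exact permutation p = 0.177). Without P29 the log2 FC of MT3 was 0.25, with an unadjusted limma p of 0.0149, short of a FC of 1.2.

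MTF1 on chromosome 6 was measured by a cluster that covers only a short stretch of the gene. MTF1 had log2 signals of 5.80, 5.80, 5.72, 5.98, 5.79 and 5.87 in group PIV, against 5.97, 5.72, 5.63, 5.72, 6.04 and 6.04 in group CON. The 6 PIV pigs lay within the range of group CON. MTF1 had a log2 FC of −0.029 ± 0.090 (SE), with a 95% interval of −0.22 to 0.16 (exact permutation p = 0.710), an interval within 1.2-fold.

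MT-2B and MT1A moved together from pig to pig. Across the 12 pigs Pearson's r was 0.856 (permutation p = 0.00023, adjusted over the 12 pairs computed p = 0.00276) and Spearman's rho was 0.909 (permutation p = 0.00011, adjusted p = 0.00132). The r was 0.886 within group PIV and 0.906 within group CON (exact permutation p = 0.0139 and 0.00556), and it was 0.837 without K22 and P30, the pigs farthest from the median of MT-2B. Both signals come from related genes whose mRNA entries are marked for cross-hybridisation. The annotation does not put their clusters in the mixed class given above for SLC30A8. The part of shared probe binding in this relation was not tested. MT-2B and MTF1 had an r of 0.603 (permutation p = 0.0332, adjusted p = 0.199) and a rho of 0.573 (permutation p = 0.0547). The r was 0.946 within group PIV (exact permutation p = 0.00556) and 0.518 within group CON (exact permutation p = 0.297), and the difference between these 2 values was not tested. For no pair were the tests within groups adjusted. The r was 0.576 without K22 and P30 (permutation p = 0.0851, with 2 fewer pigs) and 0.626 without K22 alone (permutation p = 0.0434).

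MT-2B and SLC30A1, genes known as targets of MTF1, had an r of 0.287 (permutation p = 0.366, adjusted p = 0.807) and a rho of 0.497 (permutation p = 0.106). The r was 0.672 within group PIV (exact permutation p = 0.154) and 0.101 within group CON (exact permutation p = 0.849). Without CON pig K22, where MT-2B was lowest while SLC30A1 was not, the r was 0.644 (permutation p = 0.0343, not adjusted over the pairs). Without K22 and P30 the r was 0.564 (permutation p = 0.0912). MT-2B and SLC39A14 had an r of 0.422 (permutation p = 0.169, adjusted p = 0.675). The r was 0.394 within group PIV (exact permutation p = 0.439) and 0.507 within group CON (exact permutation p = 0.310). Without K22 alone it was 0.607 (permutation p = 0.0463) and without K22 and P30 it was 0.789 (permutation p = 0.00582), both not adjusted over the pairs. The choice of K22 and P30 was fixed by their distance on MT-2B alone. ATP7B and SLC31A1, the copper exporter and importer of the hepatocyte, had an r of 0.274 over 12 pigs (permutation p = 0.393) and a rho of −0.063, with −0.922 within group PIV (exact permutation p = 0.00972) and 0.507 within group CON (exact permutation p = 0.308). These tests within groups were not adjusted over the pairs and groups. The signals of SLC31A1 in group PIV spanned only 9.41 to 9.58. The other 7 pairs, which set MT-2B against MT3, SLC30A10, HAMP and PER1, SLC39A14 against HAMP, and ATP7B against ATOX1 and CP, had an r between −0.127 and 0.268, with permutation p of at least 0.404. Only the pair of MT-2B and MT1A passed an adjusted p of 0.05, and pairs with SLC39A10 and FKBP5, which were not found by name, were not computed.

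**Figure D3:**
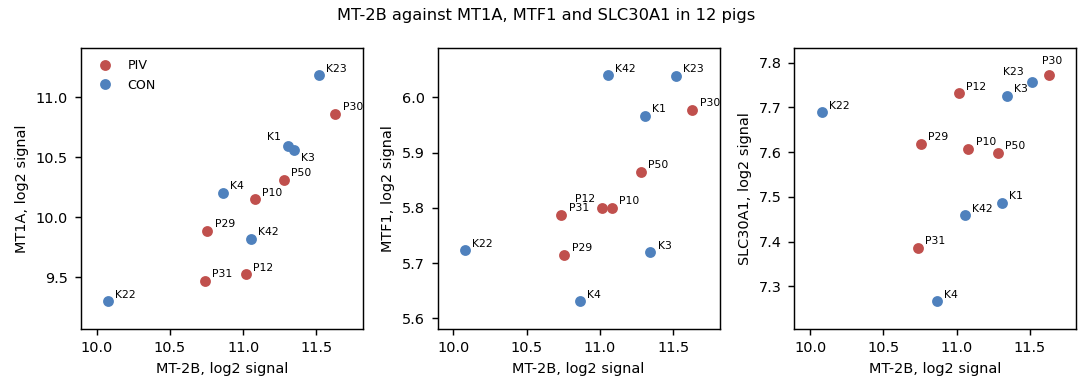
The horizontal axis of each panel gives the log2 signal of MT-2B and the vertical axis that of MT1A, MTF1 or SLC30A1, with 1 point for each of the 12 pigs, red for group PIV and blue for group CON. The points of MT1A rise along a line in both groups (r = 0.856), while CON pig K22 lies apart at the low end of MT-2B in the panel of SLC30A1 (r = 0.287).

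The 4 copper genes of the gene symbol column had 2 log2 FC above and 2 below 0, and 3 of them had an interval within 1.2-fold. ATP7A on chromosome X encodes the copper pump affected in Menkes disease and is little used by the adult liver. ATP7A had log2 signals of 4.83, 5.22, 4.98, 4.89, 5.07 and 4.84 in group PIV, against 5.07, 5.06, 5.01, 5.27, 5.22 and 4.81 in group CON. PIV pigs P10 and P50 and CON pig K42 were lowest and K22 was highest. ATP7A had a log2 FC of −0.10 ± 0.095 (SE), with a 95% interval of −0.30 to 0.10 (exact permutation p = 0.273). SLC31A2 encodes CTR2, a relative of CTR1 on internal membranes, and was dim, with signals of 4.31 to 4.61 in group PIV and 4.41 to 4.69 in group CON (log2 FC −0.091 ± 0.078). CCS hands copper to superoxide dismutase and had signals of 6.34 to 6.85 in group PIV and 6.44 to 6.81 in group CON (log2 FC 0.020 ± 0.095). COMMD1 helps ATP7B reach its place in the cell and is known from copper toxicosis in dogs, and its signals were 5.14 to 5.38 in group PIV and 5.04 to 5.49 in group CON (log2 FC 0.036 ± 0.089).

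The remaining copper genes were named through an mRNA entry. SLC31A1, which the annotation covers with 8 probes, had log2 signals of 9.47, 9.56, 9.49, 9.41, 9.58 and 9.48 in group PIV, against 9.45, 8.98, 9.27, 9.77, 9.86 and 9.50 in group CON. The 6 PIV pigs lay close together and inside the range of group CON, which ran from K3 to K23. SLC31A1 had a log2 FC of 0.026 ± 0.12 (SE), with a 95% interval of −0.24 to 0.29 (exact permutation p = 0.868). ATP7B, the gene of Wilson disease, had log2 signals of 6.47, 6.43, 6.53, 6.83, 6.28 and 6.57 in group PIV, against 6.66, 6.18, 6.08, 6.37, 6.46 and 6.57 in group CON. PIV pig P30 was highest, CON pigs K4 and K3 were lowest, and the other 9 pigs interleaved. ATP7B had a log2 FC of 0.13 ± 0.11 (SE), with a 95% interval of −0.10 to 0.37 (exact permutation p = 0.290). The chaperone ATOX1 had signals of 6.66 to 7.12 in group PIV and 6.57 to 7.28 in group CON. ATOX1 had a log2 FC of −0.16 ± 0.12 (SE), with a 95% interval of −0.41 to 0.10 (exact permutation p = 0.245). Without CON pig K23 it was −0.24, with an unadjusted limma p of 0.0390, short of a FC of 1.2.

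Several of these genes had a smaller spread in group PIV than in group CON. The SD was larger in group CON for 13 of the 18 genes and for 12 of the 17 further genes, against 64.2% of all clusters. The SD of group CON was largest relative to that of group PIV for SLC31A1, with an SD of 0.063 in group PIV and 0.32 in group CON, SLC39A11, with 0.068 in group PIV and 0.26 in group CON, SLC39A14, with 0.083 in group PIV and 0.26 in group CON, and SLC39A6, with 0.11 in group PIV and 0.41 in group CON. MT3 went the other way, with 0.24 in group PIV and 0.11 in group CON. These 5 genes were chosen after their values were seen, and the difference in spread was not tested. CON pig K22 was the highest or the lowest of the 12 pigs in 11 of the 35 genes, beside 30.5% of all clusters, and CON pig K4 also in 11 of them, beside 14.1% of all clusters, with K4 lowest in 10 of the 11. The part of these arrays in the spread was not tested.

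**Figure D4:**
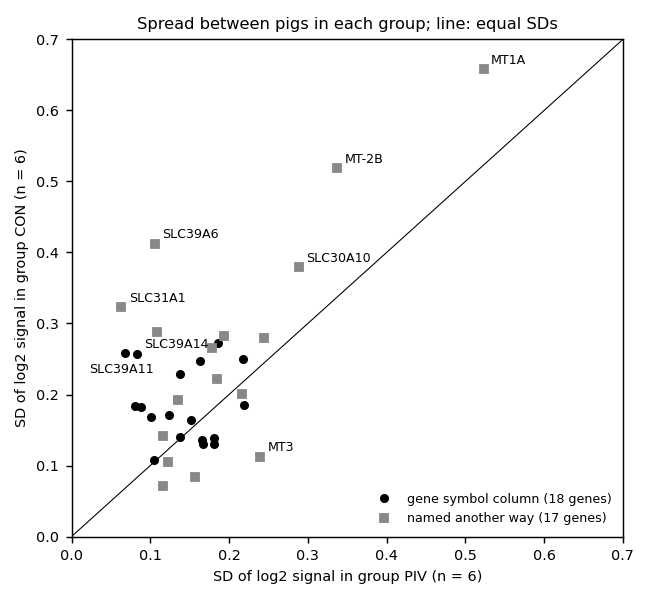
The horizontal axis gives the SD of the log2 signal between the 6 pigs of group PIV and the vertical axis that between the 6 pigs of group CON, with 1 point for each of 35 genes and a line of equal SDs. Of the 35 points, 25 lie above the line, MT1A and MT-2B have the largest SDs in both groups, and SLC31A1 and SLC39A6 lie far above the line.

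The proteins that use or bind these metals were described by lists. Of 35 genes of copper proteins and copper chaperones, 28 were measured, with a median log2 FC of −0.020. At the filter 0 rose and 0 fell, against 1.03% of all clusters higher and 0.788% lower. A count of 0 in 28 genes is close to what these shares give for so few genes. Ceruloplasmin (CP), the copper protein of plasma, averaged 10.99 ± 0.18 in group PIV and 10.99 ± 0.29 in group CON (SD, n = 6 each), with a log2 FC of −0.0045 ± 0.13 (SE). SOD1, the cytosolic copper and zinc superoxide dismutase, had a log2 FC of 0.10 ± 0.083. In this list, 2 of the 28 genes, COMMD4 and COMMD10, relatives of COMMD1, had an unadjusted limma p under 0.05 with a FC below 1.2, against 3.63% of all clusters with such a p, and they are named here after their values were seen. COMMD4 had signals of 5.76 to 5.94 in group PIV and 5.40 to 5.75 in group CON, ranges that did not overlap, as for 0.158% of all clusters (log2 FC 0.18 ± 0.077, exact permutation p = 0.00216, the smallest that 6 against 6 pigs can give). COMMD10 had signals of 5.23 to 5.56 in group PIV and 5.45 to 6.05 in group CON (log2 FC −0.24 ± 0.10, exact permutation p = 0.0260). Both had an adjusted p of 1.00 from limma.

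The list of zinc enzymes and zinc-binding plasma proteins also held TMEM163, which encodes a zinc transporter of vesicles. Of the 25 genes of the list, 24 were measured, 1 rose and 0 fell, with a median log2 FC of 0.039. Of all clusters, 1.03% were higher and 0.788% lower at the same filter. The gene that rose was TMEM163, so that no enzyme or plasma protein of the list passed. TMEM163 had signals of 3.25 to 3.58 in group PIV and 2.94 to 3.46 in group CON. Its log2 FC was 0.29 ± 0.10 (exact permutation p = 0.0238, adjusted limma p = 1.00), and it was dim in every pig. The genes that react to metals and oxidants gave 0 up and 0 down among 8 measured of 11, and glucocorticoid targets 0 and 0 among 7 measured of 8. Of 18 acute phase genes 12 were measured, with a median log2 FC of −0.060. Of these 12 genes 0 fell and 1 rose (against 1.03% of all clusters), the iron hormone hepcidin (HAMP), with a log2 FC of 0.83 ± 0.31 (exact permutation p = 0.0541, adjusted limma p = 1.00). Among markers of hepatocytes, macrophages, T and NK cells, endothelium, stellate cells, bile duct, erythroid cells and neutrophils 0 passed the filter, and of 5 measured markers of B and plasma cells 1 fell (against 0.788% of all clusters), JCHAIN, with a log2 FC of −0.47 ± 0.13 (exact permutation p = 0.00433, adjusted limma p = 1.00). TMEM163, HAMP and JCHAIN are named because they passed the filter. Their permutation p, from the same values, is therefore no separate test.

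What the 18 genes share beyond the rule is limited in this annotation. They lie on 11 chromosomes, and 14 of them carry any gene ontology term, with a term that names zinc for 9 and copper for 2. Their clusters have 21 to 44 probes, with a median of 25. SLC31A2 and SLC31A1, the genes of CTR2 and CTR1, lie on chromosome 1 in the RefSeq gene order (Sscrofa11.1) with FKBP15 between them, and their log2 FC were −0.091 ± 0.078 and 0.026 ± 0.12.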

How the data were processed

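The liver of 12 pigs, 6 of group PIV and 6 of group CON, was measured with 1 array each. RMA (background correction, normalization between arrays and summary per cluster) was run by the authors in Affymetrix Expression Console 1.4, per the submitters' processing notes. The deposited log2 signals stand in a sheet and again in the series' value table, with differences of up to 0.0050. In the same sheet are the authors' log2 ratios, fold changes and p-values for their comparison of the groups, which were not used here, and deposited score columns of the annotation such as numbers of probes. Other background corrections could therefore not be tried. No source used here gives the genome build of the annotation, so no coordinates are printed.

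Genes were those whose symbol in the gene symbol column belongs to the SLC30, SLC39, MT1, MT2 or MT3 families or is one of 8 further symbols, with the brightest cluster taken where several carried 1 symbol. Further genes of the same families were found through the mRNA column, an updated locus symbol or, for LOC100737544, the gene description. The genes, lists and tests were chosen with earlier results of these data known. Values of every pig are given for metallothioneins, MTF1, SLC30A1, SLC30A10, SLC39A4, SLC39A14, ATP7A, ATP7B, SLC31A1, the 3 genes with the largest absolute log2 FC and the 3 with the largest SD.

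With 3 ribosomal RNA clusters removed, lmFit and eBayes of limma 3.58.1 (R 4.3.3) were run on the other 25385, with p-values adjusted by the Benjamini-Hochberg method over all of them. The methods' filter was applied to limma's p. Single genes were also compared with a two-sided exact permutation test over the 924 assignments of pigs to groups, not adjusted, whose smallest p is 0.00216. Correlations used 100000 resamples over 12 pigs and exact tests within groups. Their adjustment covered the 12 pairs over all 12 pigs, not the tests within groups or with pigs left out. The fit and the permutation test were tested on simulated data. Pen and litter are not in the labels, each pig was taken as independent, and a likeness of pen mates would make the p-values too small. Arrays were numbered by group, so the 2 cannot be told apart.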

Additional observations from a re-analysis of the deposited data

Results flagged for a closer look

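In 4 of the 70 groups of 6 pigs tested, 2 for each of the 35 genes, 1 pig stood apart from the other 5 by more than Dixon's limit, where chance gives about 1 in 20 groups. In group PIV, pig P12 had a log2 signal of 7.2257 for LOC100737544, the gene similar to ZIP5, against 7.4347 to 7.5523 in the other 5 pigs. In group CON, pig K22 stood apart for 2 importers. It had 5.0159 for SLC39A3, against 4.5609 to 4.6786 in the other 5 pigs, and 4.5218 for SLC39A4, against 4.985 to 5.2224. In group CON, pig K3 had 4.4622 for MT3, against 4.6668 to 4.7707 in the other 5 pigs. None of these 4 genes passed the filter when the pig concerned was left out. K22 is also the array of lowest weight, and its part in the values of SLC39A3 and SLC39A4 was not tested.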

How the results depend on the processing

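The count of 0 among the 18 genes past the filter and after adjustment was the same under every alternative tried, namely the methods' t-test, weighted arrays, a robust fit with a variance trend, only clusters that were not dim, quantile normalization done once more, medians of the arrays set equal, the series' value table, the mean of several clusters of a gene, FC from linear means, FC limits of 1.1 and 1.5, leaving out each pig in turn, and leaving out K22 and K42 together, which was chosen after seeing the data (not every alternative applies to both counts). Among the 17 further genes the count was 1 (MT1A) without K22 and K42 together and 0 otherwise. Without a FC limit 1 of the 18 genes had an unadjusted limma p under 0.05 in 4 of these fits: SLC39A14 without K4, SLC30A8 without K42 or without K22 and K42, and SLC30A4 without P50. The number of the 18 genes with an interval within 1.2-fold ranged between 5 and 9 when each pig was left out. With each pig left out, the median log2 FC of the 18 genes ranged between −0.052 and 0.0020.

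The clusters of the whole table past the filter, 462, were 300 with the methods' t-test, 161 among clusters that were not dim, 427 to 705 when each pig was left out (705 without K42), 732 without K22 and K42 together, 921 at a FC of 1.1 and 25 at a FC of 1.5. The cause was not tested, apart from the fewer clusters or the other limit that some of these settings bring with them. The log2 FC of genes near 0 changed sign under some settings, none of them past the filter. With array weights it was −0.035 for MT-2B, 0.00038 for SLC30A6 and 0.0065 for SLC30A7. With equal array medians it was −0.0093 for SLC30A2, −0.011 for SLC39A9 and −0.0024 for SLC39A11. With linear means it was −0.0022 for SLC31A1, −0.015 for SLC39A9 and −0.0029 for SLC39A11. Repeated quantile normalization gave −0.014 for SLC30A2, and MT-2B was at −0.17 without K22 and K42. When each pig was left out, the log2 FC ranged over −0.028 to 0.074 for CCS, −0.0044 to 0.085 for COMMD1, −0.13 to 0.15 for MT-2B, −0.073 to 0.0085 for MTF1, −0.0044 to 0.10 for SLC30A1, −0.056 to 0.051 for SLC30A2, −0.038 to 0.093 for SLC30A5, −0.057 to 0.018 for SLC30A6, −0.060 to 0.023 for SLC30A7, −0.072 to 0.10 for SLC31A1, −0.067 to 0.090 for SLC39A11, −0.047 to 0.028 for SLC39A13, −0.11 to 0.055 for SLC39A2, −0.11 to 0.033 for SLC39A4, −0.011 to 0.068 for SLC39A5, −0.039 to 0.073 for SLC39A8 and −0.061 to 0.084 for SLC39A9. The correlation of ATP7B with SLC31A1 was −0.063 by Spearman's rho and −0.922 within group PIV. No paired analysis was possible because the labels give no number that ties a pig of one group to a pig of the other. The number of arrays, 6 a group, limits the precision, and signal over background was not analysed here.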
